A study of Homo sapiens with 27 samples.

Results

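Keratins are the intermediate filament proteins of epithelial cells, and they are described here as a gene family across 9 human cell lines. Members were the protein-coding genes of GENCODE release 29 whose symbol is KRT followed by a number and at most 1 letter. That gave 55 genes of the 34584 genes matched in the tables, 29 of type I and 26 of type II. All 55 were present in every table. Of these, 27 passed the filter on low counts and were tested among 17220 genes.

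The study sequenced poly-A RNA from 9 lines with 3 libraries each, 27 in all, which its design text calls biological replicates. How far the cultures were separate is not stated, so p-values measure the spread between these libraries. Each comparison was made between lines: no line carried a treatment or an engineered allele in the labels. A549 is a lung adenocarcinoma line, labelled lung. Caco2 is a colorectal tumour line, labelled colon, and HepG2 a liver tumour line, labelled liver. RT4 is a bladder tumour line that carries the label kidney. The lines labelled skin, SK-Mel 24 and SK-Mel 28, come from melanomas, U2-OS is an osteosarcoma line labelled bone, and U251 is a glioblastoma line labelled brain. BJ is a line of dermal fibroblasts that carries the label epithelial. A549 and BJ were grown in DMEM, RT4 and U2-OS in McCoy medium and the other lines in EMEM. Serum was 15% for SK-Mel 24 and 10% for the rest, so line and medium cannot be told apart. Each line is 1 line from 1 source and stands for its tissue only in that sense.

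As background, a keratin filament is built from obligate pairs of 1 acidic type I chain and 1 basic to neutral type II chain. Type II genes lie in a cluster on chromosome 12 and type I genes on chromosome 17, except KRT18, which sits beside its partner KRT8 in the type II cluster. Simple epithelia use KRT8 and KRT18 with KRT7, KRT19 or KRT20. Basal cells of stratified epithelia use KRT5 with KRT14 or KRT15, wounded epithelium adds KRT6, KRT16 and KRT17, and the hair shaft has its own set.

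Libraries held 15597117 to 32583547 estimated counts. Mitochondrial genes took 32.56 to 71.06% of the counts in the HepG2 libraries and 0.93 to 5.72% in the others. TPM, a level scaled to transcript length and library total, is pressed down in HepG2 by that share, while the fitted comparisons normalise for it. Marker lists were compared with the labels. Summed melanocyte markers were 11380 to 16290 TPM in SK-Mel 28. In SK-Mel 24 they were 6992 to 9673 TPM, of which S100B gave a mean of 7822 TPM, while PMEL (3.10 TPM) and MLANA (1.08 TPM) were as low as in lines of other origin and SOX10 was at 252 TPM. Fibroblast markers summed to 7251 to 17340 TPM in BJ. Osteoblast markers summed to only 16.0 to 21.5 TPM in U2-OS, with SP7 and IBSP under 0.1 TPM, below A549 at 173.5 to 308 TPM. The A549 sum was mostly SPP1, at 235 TPM beside 3.34 TPM in U2-OS. Of the 6 markers, 3 reached 1 TPM in U2-OS and 1 in A549. RUNX2 and ALPL were at 12.2 and 3.47 TPM in U2-OS and at 0.30 and 0.109 TPM in A549. Astroglial markers, which include S100B, summed to 168 to 261 TPM in U251 and 6841 to 9585 TPM in SK-Mel 24. Summed urothelial markers were 741 to 833 TPM in RT4, where kidney tubule markers summed to 1.22 to 2.50 TPM. Summed epithelial markers were 1542 to 1782 TPM in Caco2, 918 to 1052 in RT4, 29.1 to 85.6 in HepG2, where CLDN7, ESRP1 and RAB25 lay under 0.1 TPM, and 48.9 to 62.5 in A549, where ESRP1 and RAB25 lay under 0.1 TPM. In BJ the epithelial markers summed to 2.12 to 4.05 TPM, with CLDN3, CLDN4, ESRP1, RAB25 and ST14 under 0.1 TPM, so its label of epithelial is not borne out by these markers. The lung markers NKX2-1, SFTPA1 and SCGB1A1 were under 0.1 TPM in A549.

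Of the 55 keratin genes, 17 reached a mean of 5 TPM in at least 1 line, 13 peaked between 0.5 and 5 TPM, and 25 stayed under 0.5 TPM in every line, 5 of them with 0 counts in all 27 libraries. Only KRT8, KRT10 and KRT18 reached 5 TPM in all 9 lines. A further 7 genes reached it in a single line: KRT14, KRT6A and KRT75 in U2-OS, KRT4 and KRT20 in A549, KRT34 in BJ and KRT86 in U251. All 27 tested keratins differed among the lines by the F test at an adjusted p under 0.05, as did 98.3% of all genes tested, so that count sets keratins apart from nothing. A gene called in 1 line had to lie at least 4-fold above the next line and above each of the other 8 by test. By this rule 12 of the 27 tested keratins were called, against 14.7% of all tested genes. These were KRT14, KRT5, KRT6A and KRT75 in U2-OS, KRT33B, KRT34 and KRT38 in BJ, KRT13 and KRT33A in RT4, KRT4 in A549, KRT23 in HepG2 and KRT86 in U251. A keratin passed the count filter mostly through the line in which it was high, so this count describes the tested genes and not the family.

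**Figure D1:**
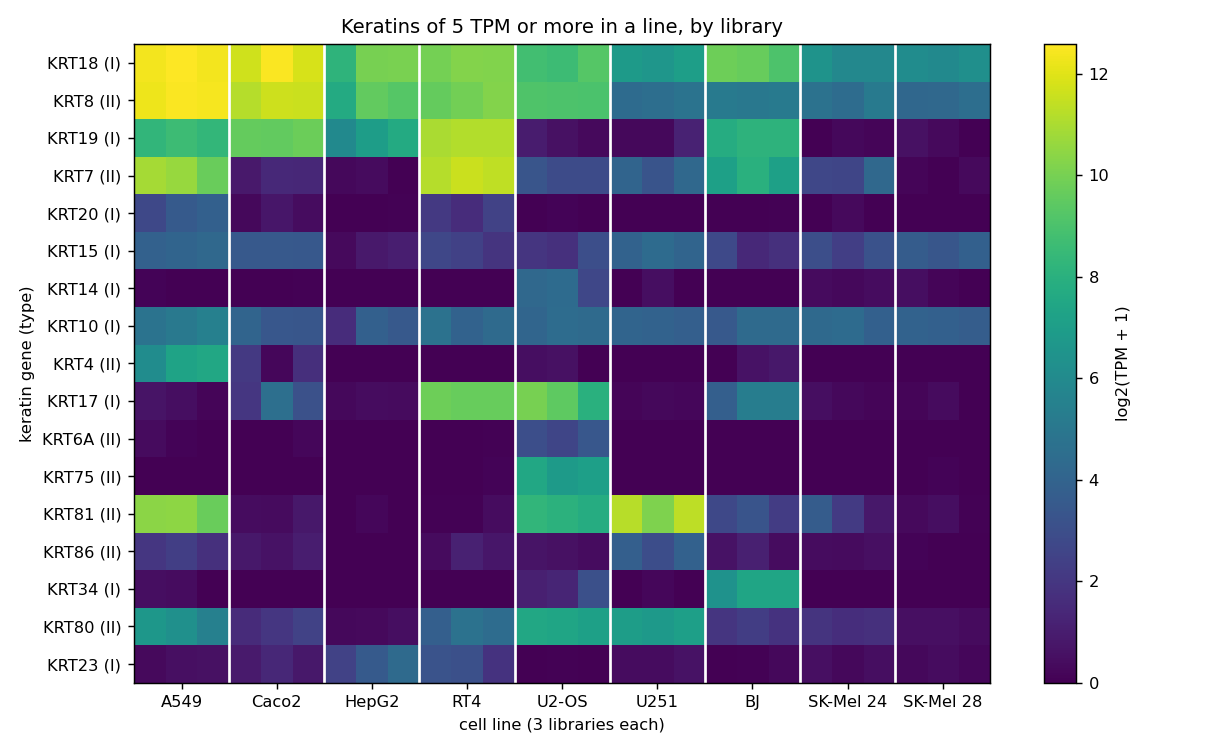
Heat map of the 17 keratins that reached a mean of 5 TPM in a line, as log2(TPM + 1) in each of the 27 libraries, with the type of each gene in brackets. KRT18, KRT8 and KRT10 are coloured in every line, whereas KRT75 is coloured only in the 3 U2-OS libraries and KRT34 mainly in the 3 BJ libraries.

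Among the simple epithelial keratins, KRT18 (type I, chromosome 12: 52948871 to 52952901, plus strand, GRCh38) was the highest keratin of the series. Its A549 libraries held 5348, 6159 and 5326 TPM and its Caco2 libraries 3226, 5945 and 3657 TPM, and the 2 lines overlapped (adjusted p = 0.50 in edgeR's quasi-likelihood test with Benjamini-Hochberg adjustment, as for every adjusted p given here). RT4 followed at 1124 ± 117 TPM (SD, n = 3, as in the values that follow), HepG2 at 796 ± 440 TPM and the fibroblast line BJ at 750 ± 183 TPM. The BJ libraries held 890.5, 818 and 543 TPM, which overlapped both HepG2 and U2-OS (484 ± 120 TPM) in TPM, although the fit separated BJ from each (adjusted p = 5.7e-06 and 0.0009). With TPM rescaled without mitochondrial genes HepG2 reached 1666 TPM, above RT4 and BJ. U251 had 115 ± 19 TPM, and SK-Mel 28 and SK-Mel 24 had 69.1 ± 7.3 and 67.1 ± 17 TPM. KRT18 was thus present in every line, with the melanoma lines lowest and not separated from each other by the test (adjusted p = 0.78).

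KRT8, the type II partner of KRT18, spans chromosome 12: 52897187 to 52949954 on the minus strand, so that its annotated 5′ end overlaps the start of KRT18 head to head. It held 5007, 5896 and 5443 TPM in A549 and 2347, 3173 and 3087 TPM in Caco2. Levels were 987 ± 221 TPM in RT4 and 538 ± 21 in U2-OS, and the HepG2 libraries held 209.3, 752 and 613 TPM. HepG2 and U2-OS overlapped in TPM, although the fit separated them (adjusted p = 1.9e-09). With TPM rescaled without mitochondrial genes HepG2 reached 1117 TPM. The remaining lines lay far lower, at 34.0 ± 1.6 TPM in BJ, 26.8 ± 6.6 in SK-Mel 24, 23.0 ± 3.2 in U251 and 19.3 ± 2.9 in SK-Mel 28. The highest library of these 4 lines, at 35.6 TPM, lay below the lowest of the other 5, at 209.3 TPM in HepG2. The ratio of KRT18 to KRT8 TPM, taken within each library, ran from 0.978 to 1.07 in A549, from 0.963 to 1.27 in RT4 and from 0.726 to 1.20 in U2-OS. In Caco2 and HepG2 it ran from 1.19 to 1.87 and from 1.36 to 1.75. In BJ it was 15.9 to 25.3. The KRT8 level of BJ, U251 and the SK-Mel lines depends on the transcripts described next.

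**Figure D2:**
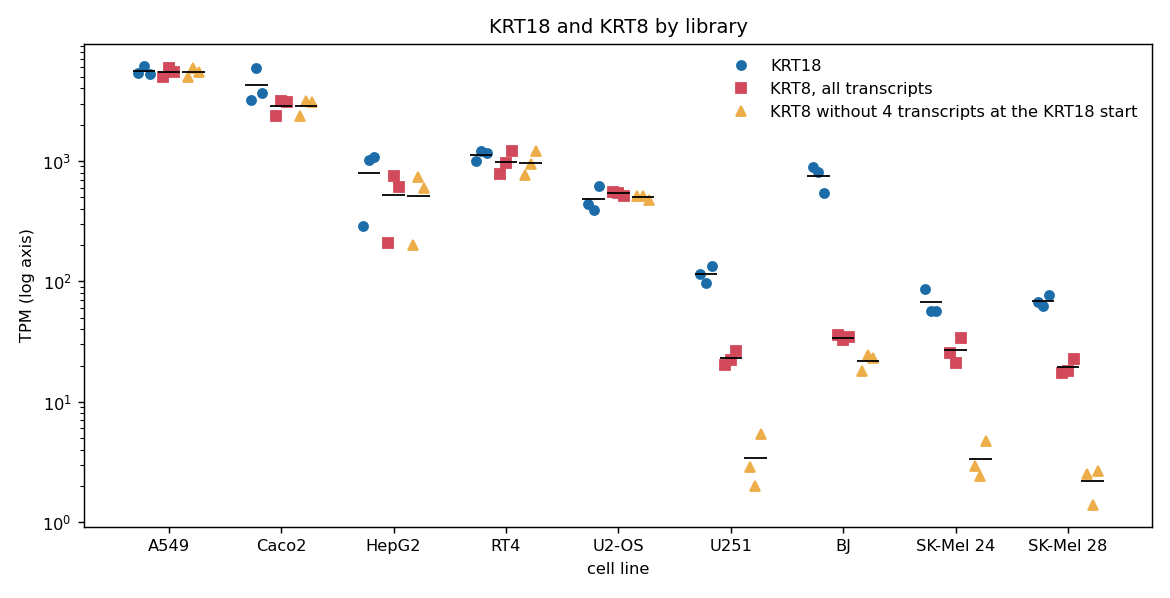
KRT18, KRT8 and KRT8 without 4 short transcripts at the KRT18 start, as TPM on a log axis, with 1 point per library and a bar at the mean of 3. The 3 KRT8 points of U251, BJ, SK-Mel 24 and SK-Mel 28 reach at most 35.6 TPM, and without the 4 transcripts those of U251 and the SK-Mel lines reach at most 5.42 TPM.

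The transcripts behind the KRT8 level differed between lines. Of the 17 annotated KRT8 transcripts, 4 lie wholly between positions 52946614 and 52949954, beside and across the KRT18 start and away from the main coding transcript (52897194 to 52906618). These 4 transcripts supplied 87.5% of the KRT8 level in SK-Mel 24, 88.7% in SK-Mel 28, 85.1% in U251 and 35.8% in BJ. They supplied 0.177% in A549, 0.188% in Caco2, 1.61% in RT4, 3.33% in HepG2 and 7.51% in U2-OS. In TPM the 4 transcripts spanned a narrow range, from 5.40 ± 1.1 in Caco2 to 40.4 ± 4.7 in U2-OS, whereas the main coding transcript ranged from 2731 ± 592 in A549 to 0 in each SK-Mel 28 library. The latter was at 0.0751 ± 0.13 TPM in SK-Mel 24, 0.928 ± 1.0 in U251 and 3.36 ± 1.6 in BJ. KRT8 without the 4 transcripts came to 3.36 ± 1.2 TPM in SK-Mel 24, 2.19 ± 0.70 in SK-Mel 28, 3.42 ± 1.8 in U251 and 21.8 ± 3.4 in BJ. This remainder keeps longer KRT8 transcripts that run from the body of the gene past the KRT18 start, as far as position 52949882. It is therefore not free of sequence that overlaps KRT18. With both strands searched, 74.1% of the 31-base stretches of the main KRT18 coding transcript and 55.5% of those of KRT8 occur in other genes, pseudogenes included. The KRT8 pseudogenes summed to 5.00 TPM in SK-Mel 24, 8.76 in SK-Mel 28, 11.5 in U251 and 4.54 in BJ. Reads can be shared with them, so the low KRT8 remainder is uncertain. KRT8 transcripts hold 24.8% of the 31-base stretches of the main KRT18 coding transcript. Where the 2 genes overlap on opposite strands, assignment of a read rests on strand, and whether the authors' run used strand is not given in the sources used here.

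A549 differed from the other epithelial lines in another KRT8 transcript. A transcript annotated as a retained intron (52899794 to 52902204) held 1735, 1170 and 1963 TPM in the A549 libraries, which is 29.8% of the gene. In the Caco2 libraries it held 1.87, 4.28 and 2.78 TPM. RT4 had 1.44, 39.1 and 0.521 TPM, and U2-OS had 1.58, 53.0 and 189 TPM, so within U2-OS this transcript ran from near 0 to more than a library of BJ held of the whole gene. Protein-coding transcripts made up 69.8% of the KRT8 level in A549 and 99.3% in Caco2. For KRT18 they made up at least 98.8% in every line.

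**Figure D3:**
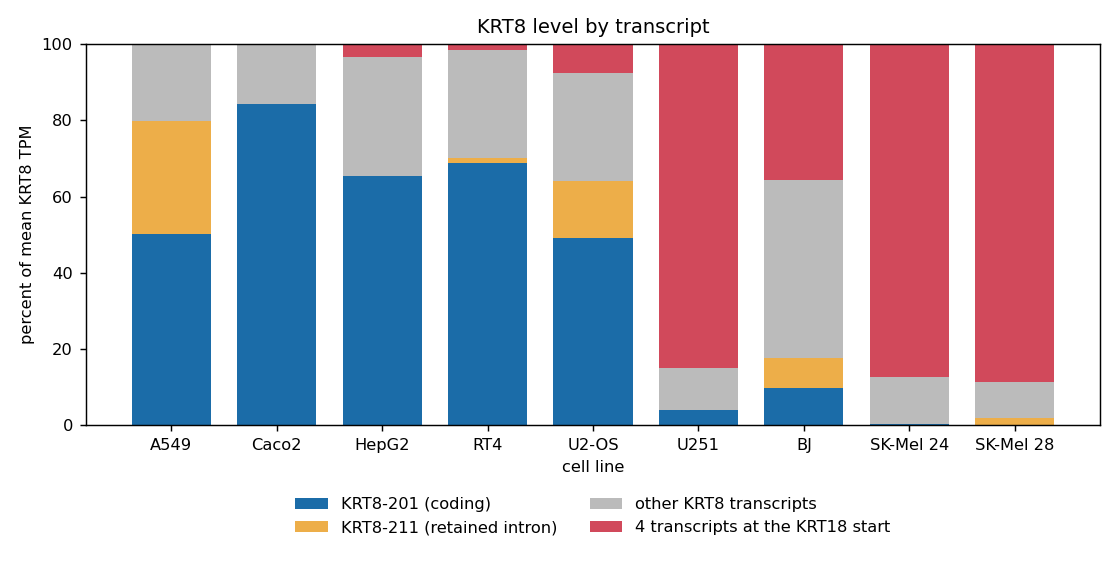
Share of the mean KRT8 TPM of each line that comes from the main coding transcript, the retained-intron transcript of A549, 4 transcripts at the KRT18 start and all others. The 4 transcripts at the KRT18 start make up 85.1 to 88.7% of the bar in U251 and the SK-Mel lines and 0.177% in A549.

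KRT19, a type I keratin that has no tail domain and marks ductal and intestinal epithelium, separated the lines into 2 sets. It was 2177 ± 140 TPM in RT4, 797 ± 54 in Caco2, 346 ± 48 in A549, 261 ± 34 in BJ and 133 ± 74 in HepG2. In the other 4 lines no library exceeded 1.28 TPM. Neighbours in this order were apart in every library, although A549 and BJ were not separated by the test (adjusted p = 0.80). Rescaled without mitochondrial genes, HepG2 reached 290.9 TPM and BJ 276 TPM, so the order of these 2 lines depends on that scaling. BJ, with 221.7, 282.1 and 280.6 TPM, was the 1 line outside the epithelial tumours that held KRT19, with a log2 fold change of 10.07 (SE 0.33, adjusted p = 2.9e-18) over the mean of the other non-epithelial lines.

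KRT7, a type II keratin of glandular and transitional epithelium, held 2300, 3101 and 2641 TPM in RT4 and 1910, 1605 and 849 TPM in A549. BJ had 143, 253 and 144 TPM. Caco2 and HepG2 held 1.39 ± 0.47 and 0.161 TPM on average, below U251 (14.3 ± 5.0 TPM), SK-Mel 24 (9.64 ± 7.4 TPM) and U2-OS (7.29 ± 1.6 TPM). In these last 3 lines protein-coding KRT7 transcripts gave only 5.20, 3.44 and 12.4% of the level, against 92.8% in A549, 89.0% in RT4 and 83.3% in BJ. The 2 leading processed transcripts gave 49.3 and 42.2% in SK-Mel 24 and 56.5 and 21.7% in U251. KRT7 and KRT20 are the pair that pathologists use to tell lung from colon tumours. KRT7 was higher in A549 than in Caco2 by 11.24 on the log2 scale (SE 0.69, adjusted p = 1.1e-12).

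KRT20, a type I keratin of intestinal villi and urothelial umbrella cells, was low throughout. It held 5.69, 11.0 and 13.7 TPM in A549, 3.25, 2.03 and 4.63 TPM in RT4 and 0.220, 0.690 and 0.334 TPM in Caco2. A549 therefore lay above the colon line for this gene, with a log2 fold change of 4.45 (SE 0.67, adjusted p = 1.4e-05). No library of the other 6 lines exceeded 0.268 TPM, and SK-Mel 28 and U251 were at 0 counts. Caco2 and HepG2 (0.0122 TPM) differed for KRT20 by 2.71 on the log2 scale (SE 1.1, adjusted p = 0.045), close to the threshold. That call was lost when Caco2 library 2 (1.88) or 3 (2.89), HepG2 library 1 (2.35) or 2 (2.12), RT4 library 1 (2.72), A549 library 2 (2.73) or BJ library 3 (2.72) was left out, and with protein-coding transcripts only (2.59).

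Set against the 5 other lines, the 4 epithelial tumour lines had 7 of 27 tested keratins higher and 2 lower, where 14.6% of all tested genes were higher and 17.6% lower at 2-fold and an adjusted p under 0.05. These means are taken over lines on a log scale, so a line near 0 weighs heavily. The 7 were KRT19 (log2 fold change 9.50, SE 0.26), KRT20, KRT8 (6.61, SE 0.13), KRT23 (5.21, SE 0.35), KRT18 (4.17, SE 0.14), KRT7 (2.96, SE 0.54) and KRT17 (1.94, SE 0.47), and they hold all 5 simple epithelial keratins. KRT8 passed at an adjusted p of 5.6e-22 and KRT18 at 2.4e-18. The 2 lower genes were the hair keratins KRT81 (fell by 3.22, SE 0.41, adjusted p = 2.1e-07) and KRT86. KRT81 is among the highest keratins of A549, and its call rests on the other 3 epithelial lines, each under 0.5 TPM on average. The KRT20 call was lost without HepG2 library 3 (5.82). The KRT86 call was lost without SK-Mel 28 library 1 (-0.71), without any 1 HepG2 library (-1.32 to -1.29) and in DESeq2 (-0.81). KRT86 turned to a higher value (0.54, not called) when HepG2, with 0 counts, was left out of the mean. That alternative also raised the count of higher keratins to 12 and cut the lower ones to 1, and the share of all genes under it is not given here.

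Basal keratins were scarce even where keratin levels were high. KRT5, the type II basal keratin, peaked at 2.76 ± 0.49 TPM in U2-OS and held 0.291 ± 0.13 TPM in RT4. KRT14, its type I partner, was 18.2, 20.0 and 5.38 TPM in U2-OS and under 0.3 TPM on average in every other line, with 0 counts in HepG2, RT4 and BJ. A retained-intron transcript made up 78.7% of that level, and the coding transcript held 3.01 ± 1.2 TPM. Of the 31-base stretches of the KRT14 coding transcript, 46.1% also occur in transcripts of other genes, mainly KRT16 and its pseudogenes, so reads can be shared between them. KRT15, a type I keratin of basal and stem-like cells, was low in all lines, from 0.733 ± 0.43 TPM in HepG2 to 16.8 ± 2.9 TPM in U251. In U251 the 2 leading retained-intron transcripts gave 31.2 and 30.6% of it and the leading coding transcript gave 27.3%, and in A549 these shares were 35.1, 24.6 and 20.4%. In U2-OS KRT15 fell by 1.34 on the log2 scale against the other non-epithelial lines, a call lost with protein-coding transcripts only (-0.71) and without U2-OS library 1 (-1.12) or 2 (-0.99).

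Among the suprabasal and internal stratified keratins, 7 of 11 stayed under 0.5 TPM in every line. KRT4, the type II keratin of oesophageal and other mucosal linings, held 69.6, 159 and 187 TPM in A549 and 1.89 ± 1.6 TPM in Caco2, the next line. A549 exceeded Caco2 by 6.12 on the log2 scale (SE 0.71, adjusted p = 2.9e-07), and no library of another line passed 1 TPM. KRT13, its usual type I partner, was at 0.268 ± 0.16 TPM in A549 and peaked at 3.01 ± 1.6 TPM in RT4, so the 2 partners peaked in different lines. KRT10, the type I keratin of upper epidermal layers, was present in every line, between 8.69 ± 6.0 TPM in HepG2 and 34.5 ± 8.7 TPM in A549. The low place of HepG2 is one of TPM: in the fit HepG2 came next after A549, 0.15 below it on the log2 scale, and its rescaled TPM was 17.0. Its type II partner KRT1 was among the genes under 0.5 TPM in every line. KRT78 peaked at 0.509 TPM in RT4.

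The activation keratins were led by KRT17, a type I keratin of wounded and appendage epithelium. RT4 held 910, 807 and 800.1 TPM. U2-OS held 1015, 714 and 255.7 TPM, so that library 1 lay above every RT4 library and libraries 2 and 3 below them. The 2 lines were not separated by the test (adjusted p = 0.13). BJ held 12.9, 39.2 and 39.97 TPM, Caco2 2.91, 23.4 and 7.57 TPM, and the remaining 5 lines held at most 0.591 TPM in any library. KRT17 stood 9.91 higher on the log2 scale in U2-OS than in the other non-epithelial lines (SE 0.47, adjusted p = 6.9e-15), and 9.24 higher in RT4 than in the other epithelial lines (SE 0.49, adjusted p = 4.2e-14). KRT6A, a type II partner of KRT16 and KRT17, was 7.14, 5.24 and 9.70 TPM in U2-OS, of which the coding transcript gave 18.8% and 1 retained-intron transcript gave 63.6%. KRT6B peaked at 2.40 TPM in U2-OS. The enrichment calls of KRT6A and KRT5 in U2-OS were not given by DESeq2 (margins 4.69 and 2.67). KRT16 was 2.52 ± 2.4 TPM in A549, 2.36 ± 0.63 in RT4, 1.09 ± 0.24 in BJ and 1.01 ± 0.64 in U2-OS. Of the 31-base stretches of the KRT6A coding transcript, 52.7% occur in other genes, chiefly KRT6B and KRT6C, against 37.7% for KRT17.

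Of the 10 keratins of the inner root sheath and companion layer of the hair follicle, KRT75 alone passed 5 TPM. KRT75 (type II, chromosome 12: 52424070 to 52434525, minus strand), a keratin of the companion layer, held 185, 116 and 137 TPM in U2-OS. The next lines were RT4 at 0.0343 TPM and SK-Mel 28 at 0.0238 TPM, and A549, Caco2, HepG2, SK-Mel 24, U251 and BJ had 0 counts in all their libraries. All of this level came from the coding transcript, of whose 31-base stretches 4.27% occur in another gene. U2-OS stood 11.21 above RT4 on the log2 scale (adjusted p for enrichment 1.9e-08), a call that DESeq2 did not give at a margin of 11.63. KRT27 was at 1.39 TPM in SK-Mel 28, and KRT71 was at 1.00 TPM in Caco2.

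Of the hair shaft keratins, KRT81, KRT34 and KRT86 passed 5 TPM, in lines of different origin. KRT81 (type II, chromosome 12: 52285913 to 52291534, minus strand) held 2404, 1145 and 2573 TPM in U251, 1367, 1407 and 844 TPM in A549 and 306, 269 and 221.9 TPM in U2-OS. The libraries of U251 and A549 overlapped, and the 2 lines were not separated by the test (adjusted p = 0.25). BJ held 6.09 ± 2.5 TPM and SK-Mel 24 held 11.6, 3.33 and 0.770 TPM, while the other 4 lines held at most 0.756 TPM in any library. Its coding transcript gave nearly all of this level. KRT86, whose annotated span contains KRT81 on the opposite strand, was 12.9, 6.96 and 13.9 TPM in U251 and 3.16 ± 0.92 TPM in A549. KRT81 and KRT86 are near copies: 43.2% of the 31-base stretches of the KRT81 coding transcript occur in KRT86 transcripts and 39.8% of those of KRT86 in KRT81, so reads of the 2 genes can be shared and the low KRT86 level is uncertain. In U251 both genes were lowest in library 2, and the enrichment call of KRT86 was lost without library 3 (1.97). KRT83 and KRT85, the next genes along the chromosome, peaked at 1.25 TPM in A549 and 0.811 TPM in U251.

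KRT34 (type I, chromosome 17: 41377650 to 41382403, minus strand), a cortex keratin of the hair shaft, held 85.3, 168 and 167 TPM in BJ. U2-OS followed with 1.13, 1.45 and 7.54 TPM, 5.87 lower on the log2 scale (adjusted p for enrichment 3.0e-06), and the other 7 lines held at most 0.365 TPM in any library. Nearby KRT33B and KRT38 also peaked in BJ, at 2.31 and 1.8 TPM, and KRT33A peaked in RT4 at 1.43 TPM, a call that DESeq2 did not give at a margin of 6.05. Of the 31-base stretches of the KRT34 transcript, 12.6% occur in KRT33B and 11.0% in KRT33A. The fibroblast line thus held 1 hair keratin at a level above its KRT8, and 9 of the 17 hair shaft keratins stayed under 0.5 TPM in every line.

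Of the 4 remaining keratins, KRT80, a type II keratin found in many epithelia, was 164 ± 23 TPM in U2-OS, 125 ± 12 in U251, 75.3 ± 29 in A549 and 19.8 ± 6.4 in RT4. U2-OS and U251 were apart in every library but not by the test (adjusted p = 0.67). The 5 other lines held 0.272 to 3.14 TPM on average. KRT23, a type I keratin, held 4.57, 10.9 and 19.1 TPM in HepG2 and 8.47, 7.50 and 2.60 TPM in RT4, which overlapped in TPM. The fitted margin of HepG2 over RT4 was 2.23 on the log2 scale (adjusted p = 1.0e-04), and it fell under the 4-fold limit without RT4 library 3 (1.84) or HepG2 library 3 (1.96). KRT222 peaked at 0.666 TPM in U2-OS.

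Within the epithelial tumour lines, RT4 had 11 tested keratins higher and 3 lower than the mean of A549, Caco2 and HepG2, beside 19.7% and 16.3% of all tested genes. A keratin could pass the count filter through RT4 alone, such as KRT33A, at 1.43 TPM there and 0.0170 TPM in the next line. The count of higher genes is therefore a description and supports nothing about the family. KRT7 (log2 fold change 9.08, SE 0.40, adjusted p = 1.1e-15), KRT17, KRT23 and KRT19 (2.32, SE 0.28) were among the higher ones. Higher here means above a log mean of 3 lines, not above each of them. HepG2 held more KRT23 than RT4 (11.55 and 6.19 TPM), and A549 more KRT20 (10.1 and 3.30 TPM) and KRT80 (75.3 and 19.8 TPM). For KRT7 the fitted margin of RT4 over A549 alone was 1.12 on the log2 scale. KRT8 (fell by 1.40, SE 0.20) and KRT18 (fell by 1.65, SE 0.25) were lower, together with KRT81. The calls of KRT80 and KRT20 were lost when HepG2 was left out of the mean (0.57 and 1.04), and KRT75 in RT4, called at 0.0343 TPM, had counts in library 3 alone. The call of KRT81 was lost without HepG2 library 2 (-3.94). In RT4 the order of levels was KRT7, KRT19, KRT18, KRT8 and KRT17, and the first 2 made up 34.0 and 27.7% of its keratin TPM. In A549, Caco2 and HepG2 the first place was held by KRT18 and the next by KRT8, which together made up 77.2, 89.1 and 89.1%.

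A549 had 9 tested keratins higher and 5 lower than Caco2, beside 21.5% and 19.8% of all tested genes. KRT81 stood 11.34 higher (SE 0.84, adjusted p = 3.5e-11) and KRT80 stood 4.48 higher (SE 0.32, adjusted p = 2.2e-11), while KRT19 fell by 1.42 (SE 0.38) and KRT17 by 5.33 (SE 0.79). KRT18 and KRT8 were not called between these lines. Caco2 had 10 higher and 2 lower than HepG2, beside 23.6% and 22.6%. Those with counts in both lines were KRT17 (3.59, SE 0.75), KRT15 (2.24, SE 0.54), KRT80 (1.53, SE 0.33) and KRT20, and the 2 lower ones were KRT23 (fell by 5.04, SE 0.50) and KRT10 (fell by 1.33). For KRT10 the TPM ran the other way, 11.5 in Caco2 and 8.69 in HepG2. The KRT10 call was lost without HepG2 library 2 (-0.99). KRT7 did not differ by the test between Caco2 and HepG2 (adjusted p = 0.24), at 1.39 and 0.161 TPM.

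In the melanoma lines, SK-Mel 28 had 0 of 27 tested keratins higher than SK-Mel 24 in edgeR, beside 15.5% of all tested genes. There were also 0 keratins higher at an unadjusted p under 0.05 and 0 in DESeq2. Without the count filter 2 were called, KRT27 and KRT79, neither of which was otherwise tested. Leaving out 1 library loosens that filter, and 1 keratin was then called in 25 of 27 fits. Of the tested keratins 5 were lower, beside 16.5%: KRT81 (fell by 4.28, SE 0.76), KRT7 (fell by 5.17, SE 0.80), KRT80 (fell by 2.48, SE 0.35), KRT86 and KRT6B. All 5 lie on chromosome 12, as do 27 of the 55 members. The first 4 are neighbours there, of which KRT81 and KRT86 share sequence, and no test of position was made. The KRT81 level of SK-Mel 24 ranged from 0.770 to 11.6 TPM between its libraries. The KRT7 difference was not called with protein-coding transcripts only (-2.22).

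Outside the epithelial tumours, U2-OS had 17 tested keratins higher and 3 lower than the mean of both SK-Mel lines, U251 and BJ, beside 24.3% and 13.2% of all tested genes. Since a keratin could pass the count filter through U2-OS alone, the count of higher genes is a description and supports nothing about the family. KRT8 (log2 fold change 4.91, SE 0.16, adjusted p = 7.6e-18), KRT80 (4.93, SE 0.20), KRT81 (4.25, SE 0.38), KRT18 (1.49, SE 0.20) and KRT16 (2.09, SE 0.58) had counts in all 5 lines. These are differences from a log mean of 4 lines: U251 held more KRT81 than U2-OS (2041 and 265.5 TPM), and BJ more KRT18 (750 and 484 TPM). KRT14, KRT5, KRT6A, KRT6B and KRT75 rose against lines partly or wholly at 0 counts, and KRT19, KRT15 and KRT23 were lower. The KRT19 call was lost without SK-Mel 24 library 2 (-1.51), and that of KRT4 without U2-OS library 2 (2.43). BJ had 9 higher and 3 lower, beside 18.3% and 15.2%. The limit set by the count filter holds for BJ too, where KRT34, KRT33B and KRT38 had their highest level. KRT19, KRT7 (7.24, SE 0.34, adjusted p = 2.6e-15), KRT17 (4.84, SE 0.49), KRT16 (3.06, SE 0.56) and KRT18 (2.91, SE 0.19) had counts in all 5 lines, and KRT80, KRT81 and KRT14 were lower. The KRT14 call was lost without U251 library 2 (-4.60). KRT17 in BJ was called although U2-OS held more of it, since that mean, taken on a log scale, includes 3 lines at 0.237 TPM or less.

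Summed over all 55 genes, keratins took 14350 ± 1350 TPM in A549, 7986 ± 1795 in Caco2 and 7870 ± 716 in RT4. U251 (2365 ± 816 TPM) and U2-OS (2324 ± 401) had higher means than HepG2 (1475 ± 786) and BJ (1432 ± 194). SK-Mel 24 and SK-Mel 28 held 138 ± 23 and 116.5 ± 9.8 TPM. With TPM rescaled without mitochondrial genes HepG2 reached 3119, so its place in this order depends on that scaling. In bulk RNA, fewer cells with a transcript and less of it per cell cannot be told apart.

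The sums of type I and type II transcripts were near each other in some lines and far apart in others. The ratio of type I to type II TPM was 1.04 ± 0.15 in U2-OS, 1.15 ± 0.12 in RT4 and 0.725 ± 0.050 in A549. It was 1.77 ± 0.33 in Caco2 and 1.81 ± 0.30 in HepG2. BJ and SK-Mel 28 had a type I excess, 5.58 ± 1.1 and 4.80 ± 0.47, and SK-Mel 24 stood at 2.16 ± 0.64. U251 had the reverse, 0.0736 ± 0.026, with KRT81 making up 85.3% of its keratin TPM and no type I hair keratin at 5 TPM. Without the 4 KRT8 transcripts at the KRT18 start the ratio rose to 4.61 in SK-Mel 24 and 31.9 in SK-Mel 28. Protein-coding transcripts alone gave 0.929 in A549, and 5.98, 18.0 and 7.00 in SK-Mel 24, SK-Mel 28 and BJ.

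**Figure D4:**
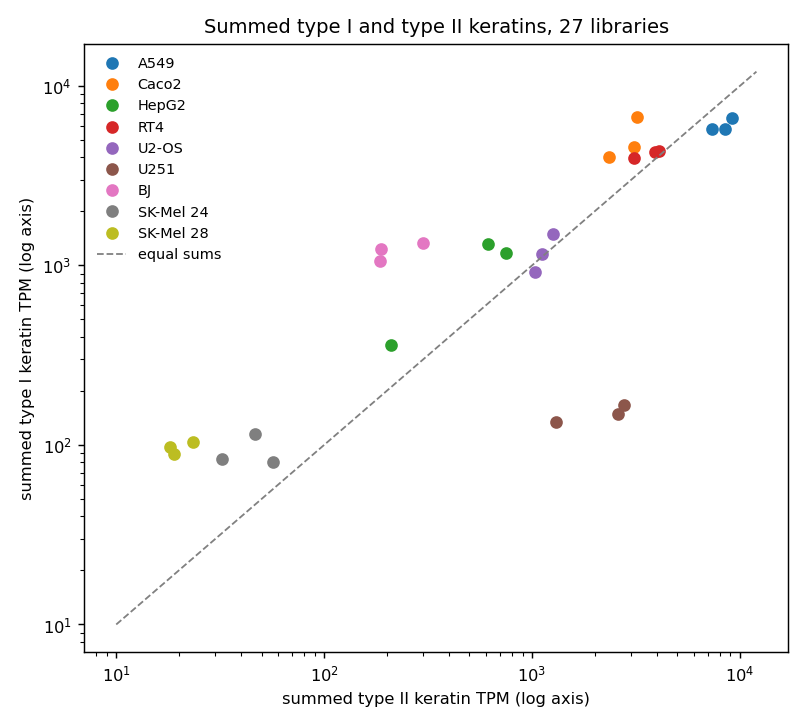
Summed type I against summed type II keratin TPM in each of the 27 libraries, both on log axes, with a dashed line at equal sums. The 3 U251 points lie far below the line and the BJ and SK-Mel 28 points above it.

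The members are set out here by position. On chromosome 12, KRT80, KRT7, KRT86 and KRT81 follow one another from position 52168996 to 52291534 (the span of KRT86 runs on to 52309163). In U251 KRT80 and KRT81 were at 125 and 2041 TPM with KRT7 between them at 14.3 TPM, and in A549 all 3 were above 75 TPM. In RT4 KRT7 was at 2681 TPM and KRT81 at 0.141 TPM. In U2-OS a second run, KRT75, KRT6B, KRT6C, KRT6A and KRT5, spans 52424070 to 52520687 and holds 5 genes that all had their highest mean in that line, KRT6C at only 0.0520 TPM. On chromosome 17, KRT14, KRT16 and KRT17 follow one another from 41582279 to 41624842, and of these KRT14 peaked in U2-OS. Neighbours in these runs also share sequence, as given above, and no test of position was made.

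**Figure D5:**
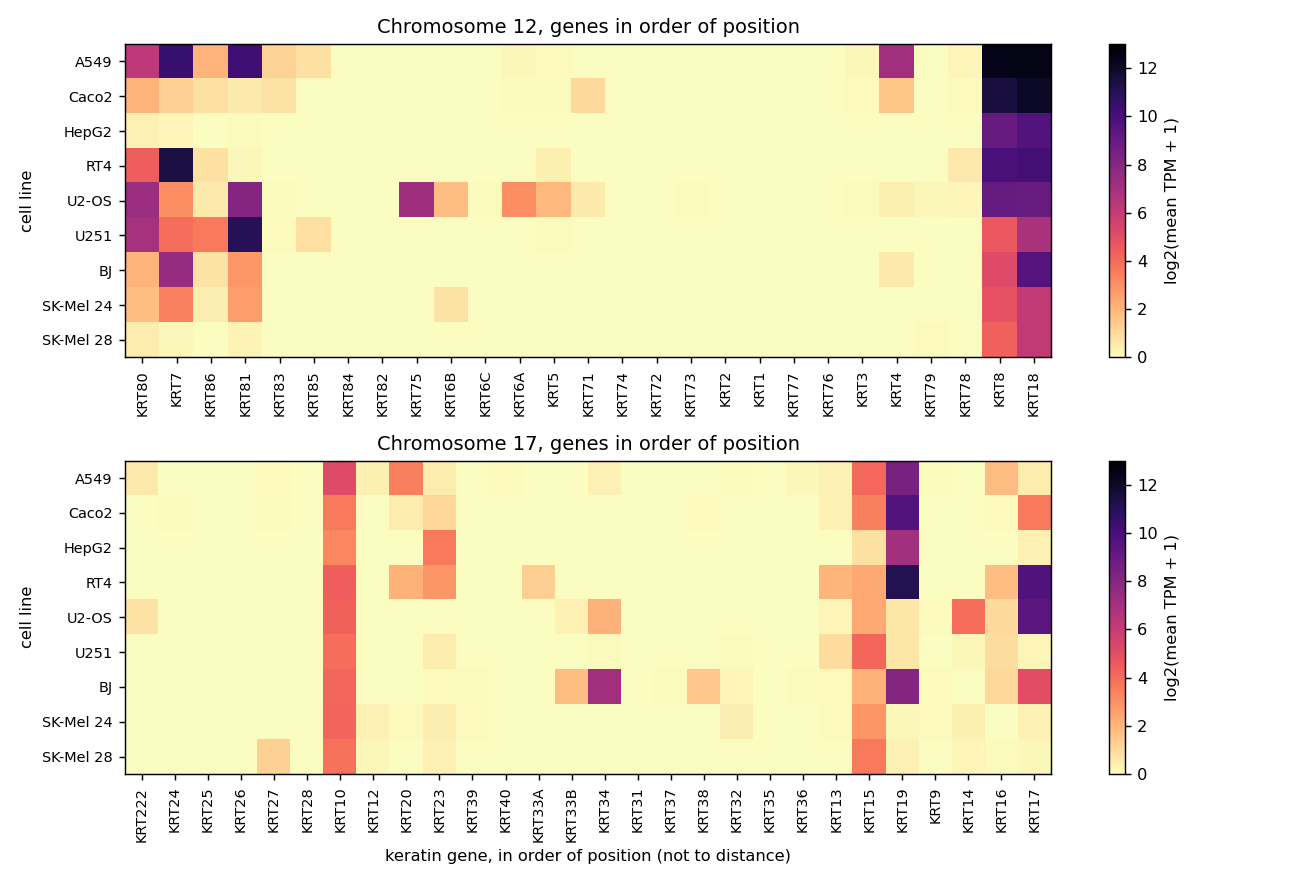
Mean level of all 55 keratin genes as log2(mean TPM + 1) in each line, with genes in order of position on chromosomes 12 and 17 (not to distance). The block of KRT75, KRT6B, KRT6A and KRT5 is coloured in U2-OS, and KRT34 and KRT33B are coloured in BJ.

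Promoter sequence was present in the RefSeq table (GRCh38.p14) for 34 of the 55 genes, and not for KRT18, KRT7, KRT19, KRT81 or KRT17. The 250 bases before the RefSeq start are shown for 4 genes whose window lies wholly before the GENCODE gene and which differ in breadth: KRT10, present in all 9 lines, KRT20, highest in A549, and the hair keratins KRT33B and KRT38, called in BJ. All 4 lie on the minus strand and are written 5′ to 3′ on it, with each TATAAA on either strand in capitals.
KRT10, chr17:40822615-40822864: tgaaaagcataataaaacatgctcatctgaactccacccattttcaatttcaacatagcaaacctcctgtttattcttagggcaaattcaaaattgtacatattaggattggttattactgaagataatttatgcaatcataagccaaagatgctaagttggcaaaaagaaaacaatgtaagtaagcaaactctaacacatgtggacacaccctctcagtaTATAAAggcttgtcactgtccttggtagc
KRT20, chr17:40885243-40885492: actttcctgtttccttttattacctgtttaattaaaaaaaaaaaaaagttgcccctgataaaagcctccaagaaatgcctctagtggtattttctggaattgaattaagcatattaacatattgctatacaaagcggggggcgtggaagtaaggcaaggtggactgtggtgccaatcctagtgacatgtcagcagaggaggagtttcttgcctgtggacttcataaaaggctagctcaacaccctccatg
KRT33B, chr17:41369814-41370063: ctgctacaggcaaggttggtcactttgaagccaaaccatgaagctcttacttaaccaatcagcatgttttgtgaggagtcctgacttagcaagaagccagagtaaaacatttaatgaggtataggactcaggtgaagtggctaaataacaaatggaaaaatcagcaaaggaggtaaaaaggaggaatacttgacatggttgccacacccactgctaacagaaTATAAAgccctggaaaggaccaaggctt
KRT38, chr17:41440984-41441233: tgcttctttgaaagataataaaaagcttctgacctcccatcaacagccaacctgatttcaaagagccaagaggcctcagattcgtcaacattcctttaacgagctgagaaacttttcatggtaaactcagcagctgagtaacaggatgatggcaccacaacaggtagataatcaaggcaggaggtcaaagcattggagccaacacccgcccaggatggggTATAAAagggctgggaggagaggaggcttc
TATAAA begins 29 bases before the start in KRT10, 28 bases before it in KRT33B and 30 bases before it in KRT38, and these letters are not in the KRT20 window. TATAAA was found on either strand in 20 of the 34 keratin windows, beside 11.1% of 27305 windows of the same length in the table. Of the 6 windows from keratins of 5 TPM or more, KRT34 and KRT10 held it, and KRT20, KRT4, KRT75 and KRT8 did not. The KRT34, KRT4, KRT75 and KRT8 windows do not lie wholly before the GENCODE gene. Among the lower keratins, the same holds for KRT5, KRT12, KRT25, KRT32, KRT36, KRT40, KRT71 and KRT82. The KRT8 window (52926470 to 52926719) also lies away from the main coding transcript (52897194 to 52906618), whose own upstream sequence was not examined. GGGCGG on either strand was in 4 of 34 keratin windows (KRT9, KRT37, KRT38 and KRT75), beside 42.3%. TGANTCA, a letter pattern of AP-1 sites, was in 0 of 34, beside 6.60%, and AACCNGTT, a pattern of grainyhead-like factors, was in 1, beside 1.48%, both on either strand. The median number of CG dinucleotides was 2 per keratin window and 11 over all windows.

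Keratin filaments are anchored by desmosomal and plakin proteins. A list of 17 linkers, which also held other proteins such as SFN, FAM83H and TCHP, was examined beside the keratins, and 16 were tested. In the epithelial tumour lines 13 of the 16 were higher and 2 lower than in the other lines (background 14.6% and 17.6%). SFN stood 6.33 higher on the log2 scale (SE 0.23), the plakophilin PKP3 6.27 (SE 0.18) and the plakin PPL 5.81 (SE 0.26). EVPL, the cornified-envelope plakin envoplakin, was at 37.8 ± 10 TPM in RT4, 5.20 ± 2.7 in HepG2, 4.18 ± 0.82 in A549 and 1.30 ± 0.45 in Caco2. EVPL was at 0 counts in SK-Mel 28 and U251. The 2 lower were PLEC and DST, large plakins that also bind other filaments. SFN, which binds keratins, was at 161 ± 14 TPM in U2-OS and 142 ± 13 TPM in RT4, whose libraries overlapped, and A549 held 72.3 ± 27 TPM. In RT4 against the other epithelial lines 9 of 16 linkers were higher and 2 lower (background 19.7% and 16.3%). In U2-OS against the other non-epithelial lines 7 were higher and 1 lower (24.3% and 13.2%), and in BJ 7 and 4 (18.3% and 15.2%). In SK-Mel 28 against SK-Mel 24 3 were higher and 5 lower (15.5% and 16.5%), in A549 against Caco2 6 and 4 (21.5% and 19.8%), and in Caco2 against HepG2 5 and 5 (23.6% and 22.6%).

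A list of 12 transcription and splicing regulators of epithelia was set beside the keratins. All 12 were higher in RT4 than the log mean of the 3 other epithelial tumour lines (background 19.7%), which is not above each of them: KLF4 was at 5.85 TPM in RT4 and 9.53 in A549, and OVOL1 at 14.9 TPM in RT4 and 23.0 in Caco2. The 12 included GRHL3 (44.8 ± 11 TPM), GRHL2 (31.1 ± 7.6 TPM), TP63 (85.2 ± 5.6 TPM) and GATA3 (154 ± 23 TPM). GRHL2 was at 15.6 ± 5.4 TPM in Caco2 and under 0.1 TPM in each A549 library, although A549 had the highest keratin sum. ELF3 was 497.5 ± 109 TPM in RT4, 373 ± 29 in A549, 145 ± 59 in Caco2 and 5.66 ± 2.3 in HepG2, and under 1 TPM in every library of the other 5 lines. Across epithelial and other lines 8 of 12 were called higher and 0 lower (background 14.6% and 17.6%). KLF4 was not called, and GRHL2, GRHL3 and OVOL1, with lines at 0, had standard errors too large for a test. KLF5 was 30.5 ± 10 TPM in U2-OS. ESRP1 was 28.2 ± 3.2 TPM in SK-Mel 28, a line with 116.5 TPM of keratins in all. Between A549 and Caco2 4 of 12 were higher and 6 lower (background 21.5% and 19.8%), and between Caco2 and HepG2 8 were higher and 1 lower (23.6% and 22.6%). SK-Mel 28 had 1 higher and 4 lower than SK-Mel 24 (15.5% and 16.5%). Against their comparison lines U2-OS had 4 higher and 2 lower (24.3% and 13.2%) and BJ 1 higher and 2 lower (18.3% and 15.2%).

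Genes of the cornified envelope, the cross-linked shell of upper epidermal cells, were tested for 8 of 12. In RT4 4 of the 8 were higher and 1 lower than in the other epithelial lines (background 19.7% and 16.3%). The higher ones were IVL, SPRR1A, SPRR1B and SPRR3, with IVL at 60.8 ± 9.6 TPM and SPRR3 at 27.3 ± 7.9 TPM in RT4, and at most 0.0252 and 0.671 TPM in any library of A549, Caco2 or HepG2. SPRR1A and SPRR1B were at 0 in every line but RT4. These 4 genes could pass the count filter through RT4 alone, so their count is a description and supports nothing about the list. The lower one was FLG, listed at 0 in RT4. In U2-OS against the other non-epithelial lines 4 of the 8 were higher and 0 lower (background 24.3% and 13.2%). U2-OS held TGM1 at 11.4 ± 5.6 TPM, CNFN at 6.71 ± 3.5, SBSN at 3.87 ± 3.3 and FLG at 1.32 ± 0.12, with IVL at 0.0185 TPM and SPRR3 at 0 counts. Higher here means above a log mean, not above each line. SBSN was at 5.36 TPM in BJ, and FLG was at 1.13 TPM in SK-Mel 24 and 0.918 TPM in U251.

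Of 6 genes of other cytoplasmic filaments, VIM, NES and GFAP were lower in the epithelial tumour lines (background 17.6%) and the other 3 were not called. VIM, the filament protein of mesenchymal cells, fell by 8.58 (SE 0.23) on this contrast. It was at 0.761 to 2.80 TPM on average in RT4, HepG2 and Caco2 and at 897 ± 135 TPM in A549. The 5 other lines held 2259 to 6337 TPM on average. U2-OS held VIM at 2259 ± 298 TPM beside 538 TPM of KRT8, and BJ held 5339 ± 868 TPM beside 34.0 TPM of KRT8.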

How the data were processed

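Poly-A RNA of 27 libraries from 9 lines was measured with a stranded mRNA kit, per the labels' protocols. The authors deposited 1 table per library with estimated counts and TPM per transcript, per the file headers. Tools given in the submitters' processing notes are kallisto 0.43.1 and CASAVA 1.8, with build GRCh38; the strand setting is not given there. Of 176241 listed transcripts, 159887 matched GENCODE release 29 and were summed to 34584 genes, and 9.28% did not match. Summed estimated counts were rounded to whole numbers.

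All 27 libraries entered 1 quasi-likelihood fit (edgeR 4.0.16 in R 4.3.3, TMM normalization, default filter on low counts), with Benjamini-Hochberg adjustment over 17220 genes. A call between lines needed an adjusted p under 0.05 and a 2-fold change. Enrichment in 1 line needed the largest of 8 one-sided p-values, adjusted, under 0.05 and 4-fold over the next line. Contrasts average lines on the log scale, and no fold is given where a line had 0 counts, except where an enrichment margin or a lost call is quoted. Alternatives were DESeq2 1.42.0, no filter, upper quartile scaling, protein-coding transcripts only, no mitochondrial genes, pseudogene TPM added, and each library left out. HepG2 left out of the means and KRT8 without the short transcripts at the KRT18 start were added after seeing the data. Genes named with values are keratins with a line mean of 5 TPM or more, and the others are named at 0.5 TPM or more. Members and gene lists were chosen with earlier results of these data known. The fit was tested on simulated data. Replicates were numbered in accession order, and no 2 libraries of a line agreed within sampling noise (lowest chi-square ratio 5.96).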

Additional observations from a re-analysis of the deposited data

How the results depend on the processing

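Upper quartile scaling and leaving out mitochondrial genes kept all 75 tested values of named genes and all 32 counts on their side of the threshold. The shares of all tested genes under the other settings are not given here, so the keratin counts below are not set against a background. In DESeq2, keratins higher in the epithelial tumour lines numbered 10 and lower 3, in RT4 8 and 5, and in U2-OS 14 and 3. In BJ they numbered 10 and 3, and in A549 against Caco2 8 and 5. In Caco2 against HepG2 they numbered 8 and 2, and in SK-Mel 28 against SK-Mel 24 0 and 4. Without the low-count filter 2 keratins were higher in SK-Mel 28 than in SK-Mel 24 and 6 were lower. A549 then had 12 higher than Caco2, Caco2 had 3 lower than HepG2, and U2-OS and BJ had 19 and 13 higher. With HepG2 left out of the means, 12 keratins were higher and 1 lower in the epithelial tumour lines, 7 were lower in RT4, and the KRT86 value of the epithelial comparison reversed to 0.54. TPM rescaled without mitochondrial genes gave a summed keratin TPM of 3119 in HepG2. Protein-coding transcripts alone gave a sum of 12500 and a type I to type II ratio of 0.929 in A549, 101.5 and 5.98 for SK-Mel 24, 89.3 and 18.0 for SK-Mel 28, and a ratio of 7.00 in BJ. Pseudogene TPM added to the parents gave a sum of 126.6 and a ratio of 3.39 in SK-Mel 28. KRT8 without the short transcripts at the KRT18 start gave a sum of 114.6 and a ratio of 4.61 for SK-Mel 24, and 99.4 and 31.9 for SK-Mel 28. With 1 library left out, keratins higher in SK-Mel 28 numbered 0 to 1, keratins lower in the epithelial lines 1 to 2 and keratins lower in Caco2 than in HepG2 1 to 2. The KRT75 call in RT4 was also lost in DESeq2 (2.42) and without the filter (3.79), and the KRT4 call in U2-OS without the filter (3.26). The cause of these changes was not tested. No paired analysis was possible because the labels carry no replicate number shared between lines. With 3 libraries a line, levels near 0 counts limit every statement on low keratins.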

Other observations

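Keratin-associated proteins, which embed the keratins of the hair shaft, were summed over 94 genes. The sum was 73.1 TPM in BJ, 27.1 in U2-OS and 17.6 in RT4, and 1.16 to 4.10 TPM in the other 6 lines. In BJ the leading gene was KRTAP1-5 at 61.5 ± 17 TPM (SD, n = 3), beside KRTAP3-1 at 5.79 ± 4.6 TPM. In U2-OS KRTAP20-4 was at 17.5 ± 13 TPM and KRTAP2-3 at 8.34 ± 11 TPM, both with a spread near their mean. In RT4 KRTAP5-9 was at 12.7 ± 2.3 TPM, and it was at 0 in U2-OS. BJ was also the line in which the hair keratin KRT34 was highest.

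Of 147 pseudogenes named after keratins, KRT87P, a copy that shares sequence with KRT81, was at 12.6 TPM in U251 and 11.9 TPM in A549, the 2 lines with the highest KRT81, and at 0.363 TPM in U2-OS. KRT8P12 was present in all lines, from 1.8 TPM in HepG2 to 9.60 TPM in U251.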
